A study of Mus musculus with 25 samples.

Results

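The dose comparison runs from saline through 10 µg to 100 µg of extract of house dust mites (HDM) in mouse lung at 2 weeks, and rests on 15 of the 25 libraries in the series, 5 mice in each of 3 groups. All were lungs of female wild-type mice, given as strain C57BL/6J in the sample labels and as C57BL/6cmdb in the study's design text. Treated mice received 10 µg or 100 µg of HDM extract intranasally and were killed at 2 weeks. Control mice appear as untreated in a characteristics label and as given saline in the treatment protocol. They are named saline below. Age, dosing schedule, hour of killing and batch of library preparation are not given in the sources used here. Mice are numbered within their group, and nothing says that equal numbers share a cage, a day or a batch. For every gene, the ordered groups were coded 0, 1 and 2, and a trend was tested over the code. The genes that moved with it were then sorted by how much of the whole change had been reached at 10 µg.

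HDM extract carries mite proteases, allergen proteins and microbial products, and repeated exposure of the airway provokes allergic inflammation with type 2 cytokines, mucus, lymphocytes and, when it lasts, deposition of matrix. Lung cells also run a circadian clock. In it the transcription factors Arntl (BMAL1) and Clock, or Npas2 in place of Clock, switch on the Per, Cry and Nr1d genes and the factors Dbp, Tef and Hlf. The Per and Cry proteins repress that activity, and the Nr1d proteins repress Arntl and Nfil3. The activators and their targets therefore peak at different hours of the day.

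Total counts ran from 25.4 M to 51.9 M (M, 1000000 counts) in 14 of the 15 libraries. Saline replicate 4 stood apart with 7.23 M, of which 27.8% fell on ribosomal RNA genes (0.00212% to 0.143% in the others) and 9.80% on mitochondrial genes (1.99% to 6.64% in the others). The libraries expressed the lung's defining markers: the mean normalised count per 1000000 counts (CPM) of Sftpc, the surfactant protein of alveolar type 2 cells, was 7947 in saline, 8827 at 10 µg and 8025 at 100 µg. Saline replicate 5 and 10 µg replicate 5 stood apart from their groups in clock genes, as given with those genes. Of 55421 genes in the table, 18708 passed the filter on low counts and were tested.

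In all, 1429 genes, or 7.64% of those tested, changed with the dose code (edgeR's quasi-likelihood test, adjusted p under 0.05). Of these 871 (4.66%) rose and 558 (2.98%) fell. Most changes were small: the median size of the slope among called genes was 0.23 (log2 per step), and 101 called genes differed by at least 2-fold between saline and 100 µg, 69 of them higher and 32 lower at 100 µg. An exact rank trend test, which uses only the order of the libraries, called 1215 genes (6.49%), 3.65% of genes higher and 2.84% lower, and 956 genes (5.11%) were called by both. In 15 genes (0.0802% of those tested) every saline library lay on one side of every 10 µg library, and these in turn on the same side of every 100 µg library. The count of called genes depended on single libraries of the outer groups. It was 848 without saline replicate 1, 706 without saline replicate 2, 616 without saline replicate 3, 696 without 100 µg replicate 2, 855 without 100 µg replicate 3 and 682 without 100 µg replicate 4, against 986 to 2091 without any 1 of the others. In whole lung, fewer cells of a type and less RNA per cell cannot be told apart.

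The single steps carried almost no calls of their own. Between 10 µg and saline 2 genes passed (0.0107% of those tested), against 2357 at an unadjusted p under 0.05. limma-voom called 5 genes for that step and DESeq2 221. Between 100 µg and 10 µg edgeR called 0 genes, against 1637 at an unadjusted p under 0.05, with 0 from limma-voom and 6 from DESeq2. A test that requires both steps to go the same way called 0 genes with edgeR (145 at an unadjusted p under 0.05), and 0 with limma-voom and with DESeq2. The whole change from saline to 100 µg was called in 1406 genes (7.52%). The slope over 3 evenly coded groups gets its size from the outer groups, so a called slope does not show that both steps were taken.

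No gene departed from even steps beyond the multiple-testing threshold. The curvature test, which compares the second step with the first, called 0 genes with edgeR (966 at an unadjusted p under 0.05, or 5.16% of genes, smallest adjusted p 0.792), 0 with limma-voom and 2 with DESeq2. Among the 1429 called genes, 62 (4.34%) had an unadjusted curvature p under 0.05. The sorting by shape that follows is therefore a description of the group means, with no test behind the class of a gene.

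By that sorting, most genes called by the straight-line slope stepped evenly. A gene was called even when 1/3 to 2/3 of its log2 change from saline to 100 µg had been reached at 10 µg. This held for 849 genes (59.4%, 95% Wilson interval over genes 56.8% to 61.9%). In 376 genes (26.3%, 24.1% to 28.7%) most of the change lay at 10 µg, and in 204 (14.3%, 12.6% to 16.2%) at 100 µg. The intervals treat genes as independent, which they are not, and cover counting error only. The slope test fits a straight line over the code, so uneven steps can count against a call and the selection favours even genes. With a linear contrast of group means 54.6% of called genes were even, and over genes at an unadjusted slope p under 0.05, 45.1% were. The median share reached at 10 µg was 53.9%, with quartiles of 40.5% and 67.3%. It was 56.5% in genes that rose and 49.3% in genes that fell. Of the 871 that rose, 479 were even, 282 had moved mostly at 10 µg and 110 mostly at 100 µg, and the same counts among the 558 that fell were 370, 94 and 94. Both steps had the same sign in 1404 called genes (98.3%), against 51.1% of all genes tested. Selection by the slope favours steps of the same sign, so this share does not show that both steps were taken. In 21 genes the 10 µg mean passed the 100 µg mean, and in 4 the first step went the other way. The order of the 2 unequal classes depended on the settings. Without 100 µg replicate 1 the class at 10 µg held 17.4% and the class at 100 µg 24.3%, and with an offset for GC content, added after seeing the data, they held 15.2% and 20.4%. Genes lay on both sides of the limits without a gap: Sgsm2 and Zfp970 had reached 33.3% at 10 µg, Ltbp4 and Smarcd1 33.5%, Bhlhe40 66.6%, and Xylt2, Angptl2 and Adamts5 66.7%.

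**Figure D1:**
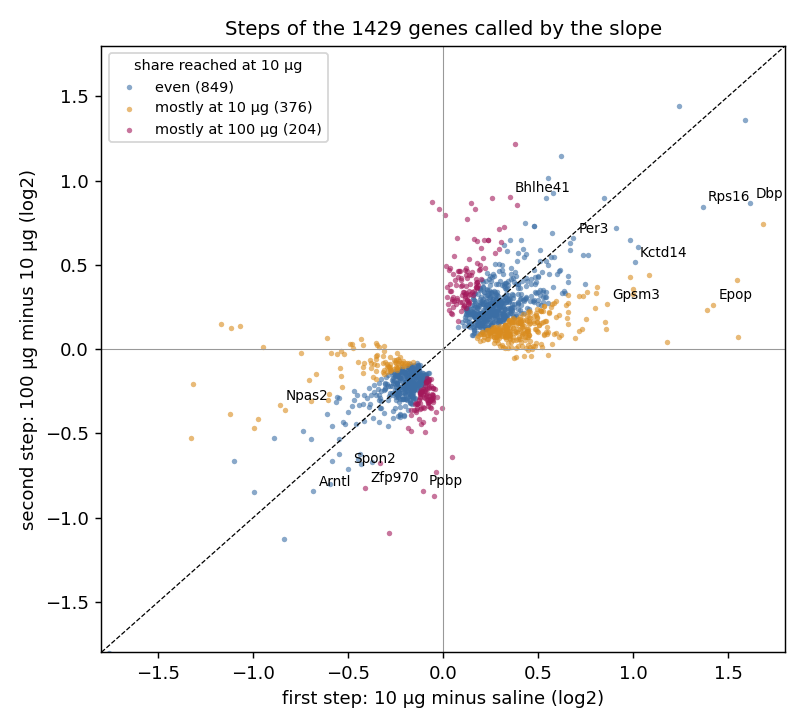
Each point is 1 of the 1429 called genes, with its first step (10 µg minus saline, log2) on the x axis and its second step (100 µg minus 10 µg, log2) on the y axis, coloured by the share of the change reached at 10 µg. The dashed line marks equal steps, and 8 genes lie outside the axes, among them Prg4, Cyp1a1 and Lars2. The 849 even genes lie around the line, the 376 genes that moved mostly at 10 µg lie nearer the x axis, and the 204 that moved mostly at 100 µg lie nearer the y axis.

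Of 38 gene lists examined, that of the circadian clock had the largest share of members called (78.9%, against 7.64% of all genes): 15 of 19 tested, 10 higher and 5 lower with dose. The activators Arntl, Npas2 and Clock, the repressor Cry1 and the D-box repressor Nfil3 fell. The D-box activators Dbp, Tef and Hlf, the repressors Per2, Per3 and Cry2, the receptors Nr1d1 and Nr1d2 and the repressors Bhlhe40 and Bhlhe41 rose. By shape 12 were even, 2 (Npas2 and Cry1) had moved mostly at 10 µg and 1 (Bhlhe41) mostly at 100 µg. Cry1, with 66.8% reached at 10 µg, and Bhlhe40, counted as even with 66.6%, lay on either side of the limit. None of the 19 had an unadjusted curvature p under 0.05. The list was called in 14 to 16 of its members whichever library was left out, and in 14 with the GC offset. Cry2 was the member that depended on single libraries: its call was lost without any 1 of saline replicates 1, 2 and 3 and 100 µg replicates 2, 3, 4 and 5, and with the GC offset.

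Arntl, the activator the others depend on (chr7:113207465-113314126, plus strand, GRCm38), stepped down through the groups. Its CPM was 69.2, 67.2, 67.3, 68.7 and 42.2 in saline replicates 1 to 5, 40.6, 42.9, 42.3, 42.9 and 26.6 at 10 µg, and 28.7, 23.7, 19.3, 21.4 and 15.6 at 100 µg. The first 4 saline and the first 4 10 µg libraries each lay within a few CPM of one another, while replicate 5 lay a step lower in both groups. Saline replicate 5, at 42.2, fell inside the 10 µg range, and 10 µg replicate 5, at 26.6, inside the 100 µg range. The slope was -0.76 ± 0.08 (SE, log2 per step, adjusted p = 0.000336), with steps of -0.68 ± 0.17 and -0.84 ± 0.17.

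Dbp, a transcription factor switched on directly by the activators (chr7:45705088-45710203, plus strand), had the highest slope of the evenly stepping genes named by the rule. Its CPM was 14.5, 11.6, 12.0, 18.6 and 38.1 in saline, 57.1, 50.5, 44.1, 43.4 and 97.7 at 10 µg, and 84.2, 104, 113, 107 and 127 at 100 µg. Replicate 5 was again the most displaced library of the saline and of the 10 µg group, and the only 10 µg library inside the 100 µg range. The slope was 1.23 ± 0.16 (adjusted p = 0.00107). Tef, a D-box activator related to Dbp, rose from 98.7 ± 13.0 CPM in saline to 136 ± 15.2 at 10 µg and 170 ± 12.9 at 100 µg (SD, n = 5), with a slope of 0.39 ± 0.05 (edgeR adjusted p = 0.00107).

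Per3, a period gene, had CPM values of 19.1, 15.9, 17.3, 17.7 and 30.1 in saline, 32.3, 26.1, 23.9, 35.5 and 44.5 at 10 µg and 40.5, 57.0, 52.6, 51.6 and 54.5 at 100 µg. Its 2 steps were nearly equal, at 0.68 ± 0.18 and 0.66 ± 0.17. Nr1d1, which encodes the repressor REV-ERBα, rose from 74.2 ± 39.9 CPM to 117 ± 17.3 and 182 ± 42.4 (SD, n = 5; slope 0.65 ± 0.13, edgeR adjusted p = 0.00719). The Nr1d1 transcript overlaps that of Thra on the other strand, and the strand setting of the counting is not given, so its count can include Thra reads.

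Bhlhe41, a repressor of the activators, was the clock gene whose change lay mostly at 100 µg: its mean was 12.6 ± 5.62 CPM in saline, 15.2 ± 4.13 at 10 µg and 28.4 ± 8.59 at 100 µg (SD, n = 5). Npas2 changed mostly at 10 µg, from 9.70 ± 3.04 CPM to 5.36 ± 0.712 and then 4.25 ± 1.05. The saline and 10 µg ranges of Npas2 met only through saline replicate 5, at 5.58 CPM, which lay below 3 of the 5 10 µg libraries. Nfil3 fell evenly, from 9.17 ± 3.17 to 6.29 ± 0.936 and 4.58 ± 0.571 CPM, and its saline values fell in 2 sets, replicates 1 to 3 between 10.3 and 13.0 and replicates 4 and 5 at 5.69 and 6.08.

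**Figure D2:**
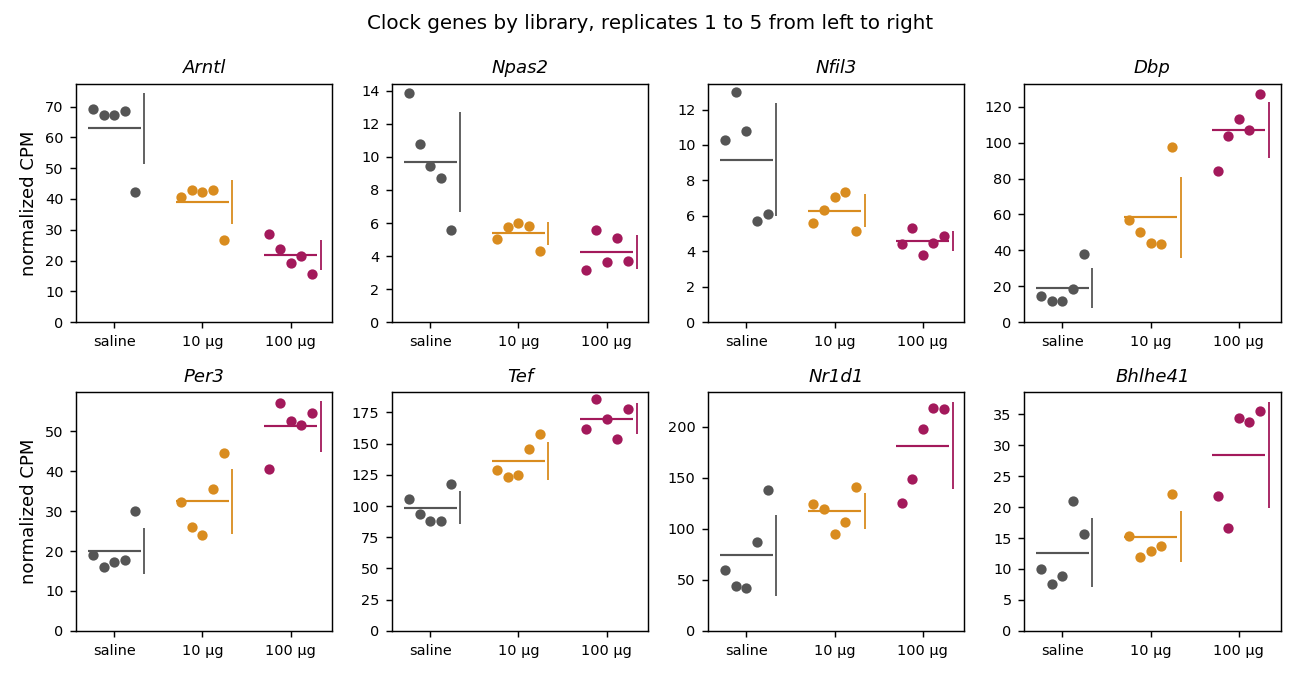
Normalised CPM of 8 clock genes in the 15 libraries. Points are replicates 1 to 5 from left to right in each group, horizontal lines are means and vertical lines mean ± SD. In Arntl, Dbp and Per3, replicate 5 of saline and of 10 µg lies a step beyond the other 4 libraries of its group.

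The displacement of replicate 5 was not confined to those examples. In 12 of the 15 called clock genes saline replicate 5 lay beyond the other 4 saline libraries in the direction of the dose change, and in 12 it reached the range of 10 µg replicates 1 to 4. In 11 of the 15, 10 µg replicate 5 lay beyond the other 10 µg libraries, and in 14 it reached the range of 100 µg. Among the other 1414 called genes saline replicate 5 was beyond its group in 49.5%, 10 µg replicate 5 in 31.1%, and both in 15.1%. On a scale where 0 is the saline mean and 1 the 100 µg mean, the median position of saline replicate 5 was 0.549 over the clock genes and 0.327 over the others, and that of 10 µg replicate 5 was 0.841 and 0.656. Saline replicate 4, the shallow library, had 0.048 over the clock genes and -0.393 over the others. At 100 µg, replicate 1 lay lowest in both sets (0.733 and 0.663), and replicate 2 lay at 0.899 over the clock genes and 1.293 over the others. With both displaced libraries left out, an alternative added after seeing the data, 15 clock genes were called, and 1519 genes in all, of which 1195 were among the 1429. The hour at which each mouse was killed is not given, and its part in the clock genes' order was not tested.

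**Figure D3:**
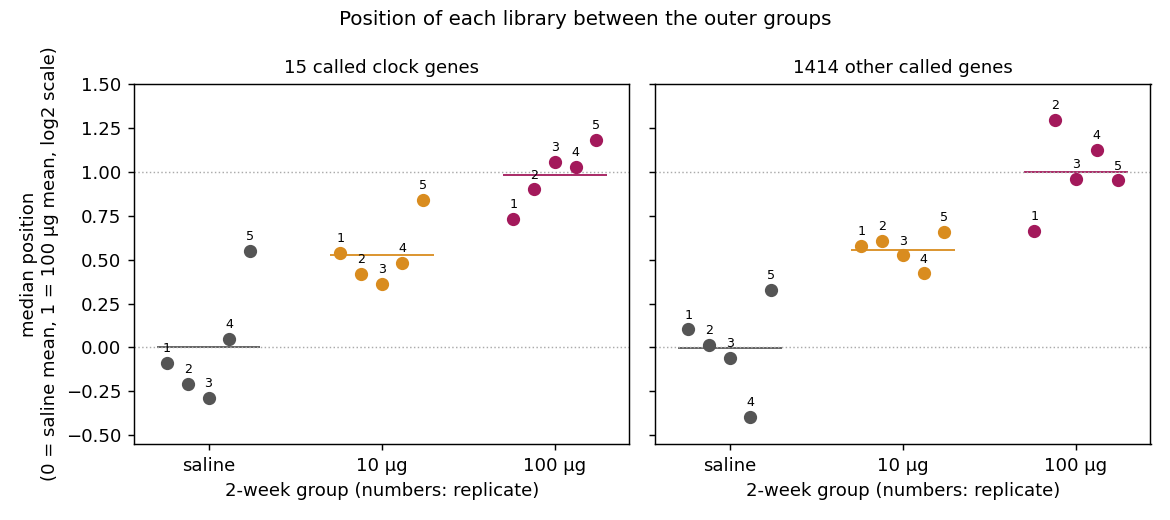
Median position of each library between the saline mean (0) and the 100 µg mean (1) on the log2 scale, over the 15 called clock genes (left) and the 1414 other called genes (right), with replicate numbers beside the points and group means as lines. Replicate 5 is the highest library of the saline and the 10 µg group in both panels, at 0.549 and 0.841 over the clock genes.

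Promoter sequence shows where the elements named after clock factors lie in these genes. The E-box CACGTG is the element bound by Arntl with Clock or Npas2, the D-box TTATGTAA that of Dbp, Tef, Hlf and Nfil3, and TAGGTCA (RRE) that of the Nr1d and Ror receptors. Windows from 250 bases before to 50 after the start of each RefSeq transcript (build GRCm38.p6) were searched on both strands. Of 32851 windows 7.15% held the E-box, 0.938% the D-box and 2.61% the RRE. Counted per gene, as for the clock genes below, 10.8% of the tested genes with a window held the E-box. The D-box was held by 0.801% of them and the RRE by 2.37%. The E-box was found in Tef and Bhlhe41 among the 8 called clock genes that rose and had a window, and in Cry1 among the 5 that fell. The D-box was found in Per3 alone of those 13, and the RRE in Arntl and Nfil3. The windows below show these matches in 2 genes that rose and 2 that fell, 5′ to 3′ on the gene's strand, with the element in capitals (for Nfil3 the RRE reads on the opposite strand). A match is a description of these letters and was not tested for binding. Tef is at chr15:81802423-81802722 (plus strand), Per3 at chr4:151044616-151044915 (minus), Arntl at chr7:113207261-113207560 (plus) and Nfil3 at chr13:52980990-52981289 (minus).
Tef: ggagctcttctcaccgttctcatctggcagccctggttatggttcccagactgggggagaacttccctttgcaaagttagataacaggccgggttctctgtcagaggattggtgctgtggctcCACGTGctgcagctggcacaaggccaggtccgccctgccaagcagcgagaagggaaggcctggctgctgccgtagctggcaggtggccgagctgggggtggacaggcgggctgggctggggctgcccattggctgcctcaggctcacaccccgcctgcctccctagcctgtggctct
Per3: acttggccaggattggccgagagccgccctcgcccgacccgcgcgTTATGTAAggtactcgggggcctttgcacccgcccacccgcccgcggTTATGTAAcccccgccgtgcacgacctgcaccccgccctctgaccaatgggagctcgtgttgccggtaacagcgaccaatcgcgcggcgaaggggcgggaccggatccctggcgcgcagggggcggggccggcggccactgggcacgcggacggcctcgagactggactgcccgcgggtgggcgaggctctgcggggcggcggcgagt
Arntl: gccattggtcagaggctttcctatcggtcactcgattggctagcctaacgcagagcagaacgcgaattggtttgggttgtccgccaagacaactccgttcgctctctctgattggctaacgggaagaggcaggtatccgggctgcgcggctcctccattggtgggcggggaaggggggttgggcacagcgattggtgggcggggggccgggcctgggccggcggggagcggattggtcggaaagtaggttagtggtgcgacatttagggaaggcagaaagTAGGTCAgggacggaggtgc
Nfil3: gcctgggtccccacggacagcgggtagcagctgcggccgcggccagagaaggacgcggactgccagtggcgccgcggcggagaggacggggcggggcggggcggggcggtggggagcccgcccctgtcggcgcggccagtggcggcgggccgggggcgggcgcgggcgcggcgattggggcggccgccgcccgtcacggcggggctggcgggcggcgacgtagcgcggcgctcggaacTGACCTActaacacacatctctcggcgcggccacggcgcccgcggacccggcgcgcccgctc

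Outside the clock, the clearest even steps were in genes whose 3 groups did not overlap. Of the 15 such genes 10 rose and 5 fell (0.0535% and 0.0267% of all genes), all 15 were called by the slope, and 14 have gene names that are not predicted loci. Rara, the retinoic acid receptor alpha (chr11:98927818-98974942), had CPM values of 37.1, 33.1, 30.8, 40.1 and 47.7 in saline, 48.2, 48.9, 48.8, 47.8 and 49.5 at 10 µg and 52.1, 69.5, 61.5, 59.6 and 60.6 at 100 µg. The 10 µg mice lay within 2 CPM of one another, and the gap between the highest saline and the lowest 10 µg library was only from 47.7 to 47.8. Its slope was 0.34 ± 0.05 (adjusted p = 0.0018).

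Kctd14, a gene of the potassium channel tetramerisation domain family (chr7:97451323-97459557), had the highest slope of the separated genes, 0.75 ± 0.11 (adjusted p = 0.00228). It had 1.18 ± 0.398 CPM in saline, 2.40 ± 0.267 at 10 µg and 3.44 ± 0.739 at 100 µg (SD, n = 5). Bag6, a chaperone that guides misfolded and tail-anchored proteins (chr17:35135178-35147322), rose from 67.8 ± 11.6 to 85.8 ± 3.02 and 108 ± 16.1 CPM, with steps of 0.33 ± 0.11 each. Rnf5, a ubiquitin ligase of the endoplasmic reticulum (chr17:34601091-34603690), rose from 7.56 ± 0.486 to 9.34 ± 0.523 and 11.2 ± 1.08 CPM. Rasd2, a small GTPase, and Sf3a2, a splicing factor subunit, also rose in separated steps, with slopes of 0.61 ± 0.09 and 0.28 ± 0.05. The rule named 6 separated genes that rose, and the other 4 were Zc3h4, Bcl2l1, Mta1 and Trim41, which are listed because they complete the count.

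Serpinb9, an inhibitor of granzyme B (chr13:33003250-33017957), fell in separated steps. Its CPM was 166, 194, 164, 190 and 172 in saline, 156, 156, 157, 149 and 155 at 10 µg and 147, 126, 134, 129 and 138 at 100 µg. Both steps were -0.20 ± 0.07, and the slope was -0.20 ± 0.03 (adjusted p = 0.00407). Wdr12, a ribosome biogenesis factor, the zinc finger gene Zfp869 and Itch, a ubiquitin ligase, fell by 0.19, 0.15 and 0.13 per step on the log2 scale. These changes were small but ordered in all 15 mice. With the GC offset the slopes of Sf3a2, Wdr12, Zfp869 and Itch were no longer called (adjusted p 0.0628, 0.153, 0.0511 and 0.175).

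**Figure D4:**
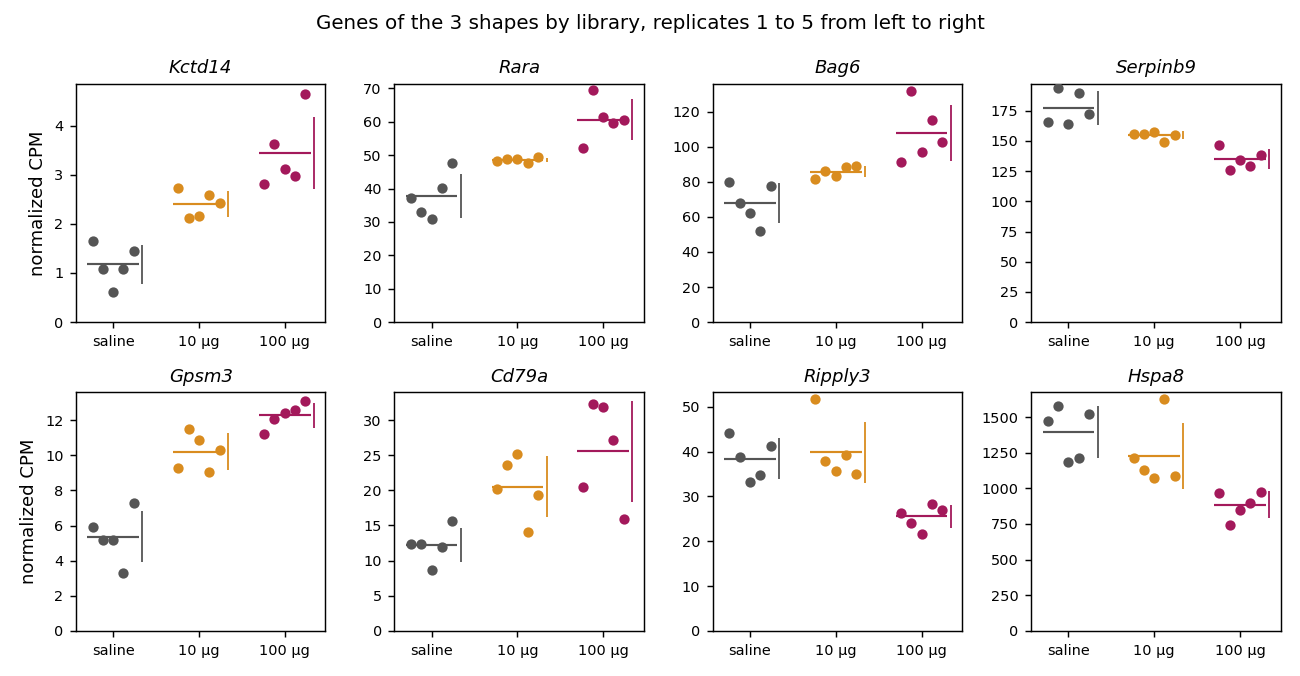
Normalised CPM of 8 genes in the 15 libraries, with replicates 1 to 5 from left to right, means as horizontal lines and mean ± SD as vertical lines. In the upper row the 3 groups of Kctd14, Rara, Bag6 and Serpinb9 do not overlap. In the lower row, by group means, Gpsm3 and Cd79a changed mostly at 10 µg, and Ripply3 and Hspa8 mostly at 100 µg. The 10 µg mean of Hspa8 includes replicate 4, the highest of its 15 libraries.

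Outside the clock, 4 genes named by the rule for the lowest even slopes fell. Spon2, which encodes an extracellular matrix protein of innate immunity (chr5:33198184-33218455), fell from 38.9 ± 12.1 CPM in saline to 27.7 ± 6.34 at 10 µg and 16.9 ± 3.22 at 100 µg (SD, n = 5; slope -0.61 ± 0.09, edgeR adjusted p = 0.0024). The 100 µg libraries of Spon2 lay at 13.7 to 22.3 CPM, and 10 µg replicate 4, at 19.7, was the only 10 µg library inside that range. Adm, the vasodilator peptide adrenomedullin (chr7:110627661-110629820), fell from 15.4 ± 3.35 to 11.3 ± 2.31 and 7.05 ± 0.577 CPM (slope -0.56 ± 0.08, adjusted p = 0.0018). Spp1, osteopontin, a matrix protein and cytokine (chr5:104435118-104441050), fell from 127 ± 48.2 to 87.0 ± 31.7 and 56.5 ± 4.58 CPM, and its spread narrowed with the mean. Il22ra2, the soluble receptor that blocks IL-22, fell from 1.97 ± 0.282 to 1.19 ± 0.473 and 0.837 ± 0.211 CPM. All 4 kept their calls whichever library was left out and with the GC offset.

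Among the even rises, Cacna1h, a T-type calcium channel subunit, went from 0.790 ± 0.302 to 1.08 ± 0.217 and 2.06 ± 0.684 CPM (SD, n = 5; slope 0.77 ± 0.14, edgeR adjusted p = 0.00562). Cyp2a5, a xenobiotic-metabolising cytochrome P450, had a slope of 0.87 ± 0.22 (adjusted p = 0.0245), but its 100 µg values spread from 11.4 to 150 CPM and its call was lost without any 1 of saline replicates 2 and 3 and 100 µg replicates 4 and 5. Rps16, a ribosomal protein gene, went from 21.2 ± 13.7 to 53.8 ± 18.4 and 96.7 ± 12.5 CPM with a slope of 1.10 ± 0.20 (edgeR adjusted p = 0.00495). Its processed copy Rps16-ps2 moved with it, by 2.07 and 1.01 (log2) in the 2 steps, and since reads of near-identical copies can be divided between them by the counting, neither level is certain.

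At the 10 µg step, the only 2 genes called were Gpsm3 and Wipf3 (adjusted p = 0.0474 for both), named here after their values were seen. Gpsm3, a regulator of G protein signalling in blood cells (chr17:34589806-34591754, near Rnf5), had CPM values of 5.93, 5.20, 5.19, 3.28 and 7.26 in saline, 9.26, 11.5, 10.9, 9.06 and 10.3 at 10 µg and 11.2, 12.1, 12.4, 12.6 and 13.1 at 100 µg. All 10 treated libraries lay above all saline libraries, and the 2 treated groups overlapped slightly. Its first step was 0.86 ± 0.14 and its second 0.27 ± 0.13, so that 76.5% of the change had been reached at 10 µg. Wipf3, an actin regulator of the WASP-interacting family (chr6:54429603-54503768), was lower at 10 µg (11.4 ± 1.45 CPM) than in saline (20.1 ± 2.70), and stood at 14.2 ± 2.18 at 100 µg. Its first step was -0.80 ± 0.12 and its second 0.32 ± 0.12, its slope was not called (adjusted p = 0.103), and it had the smallest curvature p of all genes (adjusted p = 0.792). The number of genes called at this step ran from 0 to 36 when 1 library was left out, with 36 without 10 µg replicate 4.

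Other genes whose change lay mostly at 10 µg included Epop, a polycomb-associated protein, which rose from 0.676 ± 0.197 CPM in saline to 1.89 ± 0.149 at 10 µg and 2.26 ± 0.945 at 100 µg (SD, n = 5; slope 0.79 ± 0.15, edgeR adjusted p = 0.00737). Every 10 µg library of Epop lay above every saline library, while its 100 µg values ran from 1.44 to 3.86. Asxl3, a chromatin regulator, fell from 2.56 ± 0.295 to 1.54 ± 0.223 and 1.36 ± 0.257 CPM, and all 10 treated libraries lay below all saline libraries. Rptn, an epidermal matrix gene, fell from 8.08 ± 2.66 to 5.04 ± 1.09 and 4.10 ± 1.16 CPM.

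Some calls of the class rested on few libraries. The striated muscle genes Synpo2l and Tcap rose with slopes of 0.65 ± 0.17 and 0.58 ± 0.15 (adjusted p = 0.0296 and 0.0245). Synpo2l was lost without any 1 of saline replicates 2, 3 and 5 and 100 µg replicates 4 and 5, Tcap without saline replicate 2 or 100 µg replicate 5, and both with the GC offset (adjusted p 0.0844 and 0.104). Beside them, 0 of 10 heart muscle markers were called, with a median slope of 0.23, and their summed CPM ran from 229 to 786 in saline, 452 to 1091 at 10 µg and 496 to 1565 at 100 µg. The part of heart muscle in the 2 genes was not tested. Nxpe1-ps, a pseudogene, rose with a slope of 0.57 ± 0.16 (adjusted p = 0.0357), and its call was lost without any 1 of saline replicates 1, 2 and 3 and 100 µg replicate 3. Lars2, the mitochondrial leucyl-tRNA synthetase, fell mostly at 10 µg (slope -1.66 ± 0.44, adjusted p = 0.0295), but the group mean of 116 CPM in saline came from replicate 4, at 510, and the other 4 saline libraries had 11.7 to 25.6. The Lars2 call was lost without saline replicate 4, 100 µg replicate 3 or 100 µg replicate 4.

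The named changes that lay mostly at 100 µg included falls of the chaperones Hspa8 and Hspa5. Hspa8, the constitutive heat shock protein 70 (chr9:40800984-40810087), had CPM values of 1476, 1575, 1186, 1210 and 1519 in saline, 1213, 1128, 1075, 1629 and 1087 at 10 µg and 964, 742, 850, 899 and 977 at 100 µg. All 100 µg libraries lay below all others, while saline and 10 µg overlapped and 10 µg replicate 4 was the highest library of all. Its steps were -0.18 ± 0.12 and -0.47 ± 0.12, and its slope was -0.33 ± 0.06 (adjusted p = 0.00796). Hspa8 had reached 28.3% of its change at 10 µg, a share that 10 µg replicate 4 lowered by raising the mean of its group. Its place in the 100 µg class therefore leans on that mouse. Hspa5, the chaperone BiP of the endoplasmic reticulum (chr2:34771970-34777547), fell from 447 ± 40.5 and 432 ± 31.4 to 324 ± 42.1 CPM (SD, n = 5), and had reached 11% of its change at 10 µg.

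Both chaperone lists held falls and no rises. Of 11 heat shock genes tested, 4 fell and 0 rose, against 2.98% of all genes that fell: Hspa8, Hsp90aa1, Hsph1 and the mitochondrial chaperonin Hspd1. Hsp90aa1, the inducible heat shock protein 90, went from 656 ± 124 to 537 ± 95.6 and 391 ± 63.8 CPM, and Hsph1, a nucleotide exchange factor of heat shock protein 70, from 72.1 ± 14.8 to 50.4 ± 16.3 and 38.9 ± 6.95. Of 14 genes of the unfolded protein response 2 fell, Hspa5 and Hsp90b1 (GRP94). By shape Hsp90aa1, Hsph1 and Hsp90b1 were even, with 38.9%, 57.5% and 37.2% of the change reached at 10 µg. Hspa8, Hspd1 and Hspa5 had changed mostly at 100 µg. The median slope was -0.17 over the heat shock list and -0.13 over the unfolded protein response list, against 0.01 over all genes. Hspd1 lost its call without any 1 of saline replicates 1 to 4, 10 µg replicate 5 and 100 µg replicates 2 to 5, and Hsp90b1 without any 1 of saline replicates 1, 3 and 4 and 100 µg replicates 2 to 5. Left-out libraries gave 3 or 4 calls in the heat shock list and 1 to 5 in the other, with 1 without any 1 of saline replicates 1 and 3 and 100 µg replicates 2 to 5, and 5 without 100 µg replicate 1.

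Ripply3, a transcriptional corepressor of embryonic patterning (chr16:94328420-94336935), stepped at 100 µg and not at 10 µg in its group means. Its CPM was 44.2, 38.8, 33.1, 34.8 and 41.3 in saline, 51.7, 37.8, 35.6, 39.2 and 34.9 at 10 µg and 26.4, 24.1, 21.7, 28.4 and 27.0 at 100 µg. All 100 µg libraries lay below all 10 others, and the 10 µg mean was slightly above that of saline. Its steps were 0.05 ± 0.11 and -0.64 ± 0.11, and the second had an adjusted p of 0.403 over all genes. The slope was called (-0.30 ± 0.08, adjusted p = 0.0232), and the call was lost without saline replicate 1, 100 µg replicate 2 or 100 µg replicate 3. Klhl14, a kelch-like gene, rose from 1.75 ± 0.342 and 1.99 ± 0.347 to 3.72 ± 1.30 CPM (SD, n = 5; slope 0.59 ± 0.12, edgeR adjusted p = 0.00832). Zfp970, a zinc finger gene at the limit of the class (33.3% reached at 10 µg), fell from 73.9 ± 19.5 to 55 ± 8.95 and 31.1 ± 11.9 CPM.

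Some calls at 100 µg rested on few libraries, and those of Prg4 and Cyp1a1 on 2 and 1 high mice. Prg4, the lubricant lubricin, had 0.133 to 0.466 CPM in 3 of the 100 µg libraries, 19.6 in replicate 4 and 9.0 in replicate 5, and 0.328 to 1.09 in saline. The Prg4 slope was 2.02 ± 0.53 (adjusted p = 0.0274), the rank test gave the opposite direction and no call (adjusted p = 0.792), and the call was lost without saline replicate 1 or 100 µg replicate 4 or 5. Cyp1a1, the cytochrome P450 induced by aryl hydrocarbons, had 81.6 CPM in 100 µg replicate 4 and at most 3.26 in the other 4 mice of the group. The Cyp1a1 call (slope 1.62 ± 0.45, adjusted p = 0.0344) was lost without saline replicate 1 or 2 or 100 µg replicate 4. Ppbp, a platelet chemokine, fell with a slope of -0.47 ± 0.13 (adjusted p = 0.0366), and the call was lost without any 1 of saline replicates 1, 3 and 4 and 100 µg replicates 2 to 5, and with the GC offset (adjusted p = 0.0867).

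The list of fibrillar collagen and cross-linking also held collagen VI chains and the hydroxylase P4ha1. Of its 21 tested genes, 7 rose with dose and 1 fell, against 4.66% and 2.98% of all genes, and the median slope was 0.13. Col6a1 and Col6a2, chains of the microfibrillar collagen VI, rose evenly, from 218 ± 15.9 to 273 ± 24.1 and 330 ± 52.3 CPM and from 142 ± 11.7 to 180 ± 21.5 and 213 ± 45.6 CPM (SD, n = 5). Col6a3, Loxl1 and Loxl4, the last 2 of them cross-linking enzymes, were also even. Col1a1, the main chain of collagen I (chr11:94936224-94953042), changed mostly at 100 µg. Its CPM was 99.5, 84.6, 96.0, 112 and 114 in saline, 117, 127, 99.3, 106 and 122 at 10 µg and 111, 266, 137, 193 and 185 at 100 µg. Saline and 10 µg overlapped, 4 of the 100 µg libraries lay above all others, and replicate 2 was the highest. Its slope was 0.41 ± 0.09 (adjusted p = 0.0101), and Col1a2 moved likewise, from 205 ± 16.8 and 231 ± 13.8 to 309 ± 93.4 CPM.

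P4ha1, which hydroxylates collagen chains, was the member that fell, from 114 ± 12.4 to 102 ± 11.1 and 83.1 ± 8.13 CPM. The count of called collagen genes was 6 to 10 when 1 library was left out, and Col6a3 lost its call without saline replicate 1 or 2 or 100 µg replicate 2 or 5, and Loxl4 without saline replicate 2 or 100 µg replicate 2 or 4. With the GC offset Col6a1 and P4ha1 were still called (adjusted p 0.0477 and 0.0282), and Col1a1, Col1a2, Col6a2, Col6a3, Loxl1 and Loxl4 were not. The list then held 3 calls, as a member not called without the offset passed. Of 17 elastic fibre and matricellular genes 3 rose (Fbln1, Sparc and Fbln2) and 1 fell (Spp1), against 4.66% and 2.98% of all genes. Fbln1, a fibulin of basement membranes and elastic fibres, rose evenly from 51.4 ± 6.35 to 62.2 ± 4.65 and 74.8 ± 14.1 CPM, and Fbln2 kept its call only without 100 µg replicate 1 or 3.

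B cell markers rose, mostly by 10 µg. Of 12 tested 5 rose and 0 fell, against 4.66% and 2.98% of all genes, and the median slope of the list was 0.26. Cd79a, the signalling chain of the B cell receptor (chr7:24897381-24902197), had CPM values of 12.4, 12.3, 8.72, 12.0 and 15.7 in saline, 20.2, 23.6, 25.2, 14.0 and 19.4 at 10 µg and 20.4, 32.3, 31.9, 27.1 and 15.9 at 100 µg. Only 10 µg replicate 4 lay inside the saline range, and 10 µg and 100 µg overlapped over most of their ranges. Its slope was 0.52 ± 0.10 (adjusted p = 0.00758), and 69.9% of its change had been reached at 10 µg. Fcer2a, the low-affinity IgE receptor CD23, and Fcrla also changed mostly at 10 µg, and the coreceptor Cd22 changed evenly.

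The calls of the B cell list other than Cd79a depended on single libraries. The list held 1 call without any 1 of saline replicates 1 and 3 and 100 µg replicates 3 and 4, 2 without saline replicate 2, 100 µg replicate 2 or with the GC offset, 3 without 10 µg replicate 1 or 5, and 4 to 6 without any 1 of the others. Summed over the list, CPM ran from 264 to 422 in saline, 258 to 497 at 10 µg and 309 to 578 at 100 µg. None of 7 eosinophil, 10 neutrophil or 12 alveolar macrophage markers was called by edgeR's slope test over all 15 libraries. This depended on the libraries: 2 eosinophil, 1 neutrophil and 3 alveolar macrophage markers were called without 100 µg replicate 1. Alveolar macrophage markers had 2 calls without saline replicate 4 and 1 with the replicate number as a block.

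Of 16 listed genes of type 2 cytokines, their receptors and related factors 10 passed the filter on low counts, and the other 6 were not tested. Of the 10 tested 2 rose and 1 fell, against 4.66% and 2.98% of all genes. Il2rg, the common cytokine receptor chain, rose from 16.7 ± 2.82 to 22.1 ± 1.79 and 24.5 ± 5.03 CPM, Gata3, the master factor of type 2 lymphocytes, rose from 8.75 ± 2.97 to 9.38 ± 0.672 and 12.1 ± 1.16, and Il33, an alarmin of epithelial cells, fell from 140 ± 8.37 to 122 ± 14.9 and 104 ± 26.6 (SD, n = 5). None of these 3 calls held without saline replicate 2 or 3 or 100 µg replicate 3 or 4. Il2rg was also lost without saline replicate 1, Gata3 without saline replicate 5 or 100 µg replicate 2, and Il33 without any 1 of saline replicates 1 and 4, 10 µg replicates 1, 2, 3 and 5 and 100 µg replicates 1 and 2.

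Of 10 mucus and goblet cell genes 0 were called by edgeR, although the median slope was 0.41. Muc5b, a gel-forming mucin of the airway, had 27.9 to 89.3 CPM in saline, 55.2 to 94.7 at 10 µg, and 15.5, 97.2, 62.6, 222 and 266 in 100 µg replicates 1 to 5. Replicates 4 and 5 thus lay far above all other libraries, and replicate 1 below them. The slope of Muc5b was 0.50 ± 0.23 (adjusted p = 0.176), and that of the inducible mucin Muc5ac was 0.56 ± 0.26 (adjusted p = 0.18). When 1 library was left out, Muc5b was called only without 100 µg replicate 1 (edgeR adjusted p = 0.0292). Muc5ac was called only without saline replicate 4, the shallow library (edgeR adjusted p = 0.0467). Of 13 markers of alternatively activated macrophages 1 rose, the chemokine Ccl22, and of 22 chemokines 2 rose, Ccl22 and Cx3cl1. Both shares (7.69% and 9.09%) were near the 4.66% of all genes that rose. Cx3cl1, the membrane-bound chemokine fractalkine, rose mostly by 10 µg, from 20.4 ± 3.91 to 27.9 ± 3.00 and 32.0 ± 3.86 CPM (SD, n = 5; slope 0.32 ± 0.06, edgeR adjusted p = 0.00758). Ccl22 lost its call without any 1 of saline replicates 1, 2 and 3 and 100 µg replicates 4 and 5.

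Of 18 immediate early genes 3 rose, against 4.66% of all genes. Ier2 rose evenly from 24 ± 6.38 to 31.3 ± 1.76 and 41.8 ± 5.69 CPM (SD, n = 5; slope 0.39 ± 0.07, edgeR adjusted p = 0.00435). Egr1 rose mostly at 100 µg, and 4 of the 100 µg libraries lay at 80.4 to 90.8 CPM against 13.6 to 61.5 in all the others, replicate 1 of 100 µg included. Its call (adjusted p = 0.0416) was lost in 10 of the 15 fits that left out 1 library, those without saline replicates 1 to 3, 10 µg replicates 1, 3 and 5 or 100 µg replicates 2 to 5. Zfp36 lost its call without saline replicate 3 or 100 µg replicate 2, 3 or 4.

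**Figure D5:**
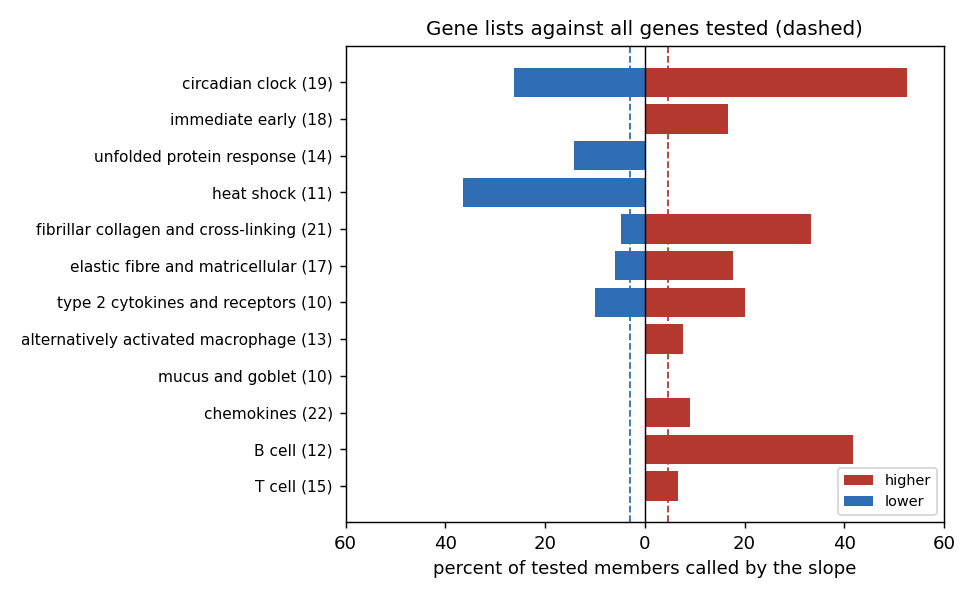
Percent of tested members of 12 gene lists called by the slope, with members that fell to the left and members that rose to the right. Numbers in brackets are the members tested, and the dashed lines mark the percent of all genes, 2.98% lower and 4.66% higher. The circadian clock has calls in both directions, heat shock to the left, and B cell and collagen genes mostly to the right.

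Like Wipf3, the other genes named for a small curvature p, none of which passed the adjusted threshold, had a 10 µg mean outside the range between the saline and 100 µg means. Oaz2, an inhibitor of polyamine synthesis, had 104 ± 6.21 CPM in saline, 130 ± 10.5 at 10 µg and 108 ± 3.34 at 100 µg (SD, n = 5), and every 10 µg library lay above every other library. Pdp2, a phosphatase of pyruvate dehydrogenase, had 19.5 ± 0.885, 23.5 ± 1.86 and 19.6 ± 0.362 CPM. Arhgef26, an exchange factor for RhoG, had 98.8 ± 5.09, 75.6 ± 6.84 and 89.2 ± 9.98 CPM. Their curvatures were -0.59 ± 0.12, -0.53 ± 0.13 and 0.62 ± 0.15 (edgeR adjusted p = 0.945 for each).

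Base composition moved with the dose code. The median GC content of the longest transcript was 48.9% over all genes tested, 56.0% over genes that rose and 43.8% over genes that fell, and it was 51.5% and 46.1% over genes with a higher and a lower slope that were not called. The classes by shape shared this: it was 56.1%, 56.0% and 55.8% in the even, 10 µg and 100 µg classes of genes that rose, and 43.7%, 43.5% and 45.5% in those of genes that fell. In each library, a contrast of the 25% of genes with most GC against the 25% with least averaged -0.231 in saline, 0.0716 at 10 µg and 0.157 at 100 µg (median log2 CPM relative to all libraries). Its slope was 0.194 per step (exact permutation test over libraries, two-sided, p = 0.00889, adjusted over 5 measures 0.0444), and without saline replicate 4 it was 0.121 (adjusted p = 0.0498). The contrast ran from -0.806 in saline replicate 4 to 0.546 in 100 µg replicate 2.

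The share of counts on mitochondrial ribosomal RNA averaged 0.648% in saline without replicate 4, 1.33% at 10 µg and 2.21% at 100 µg, and its slope was 0.785 percentage points per step (exact permutation test, two-sided, p = 7.93e-05, adjusted 0.000396). With replicate 4, at 5.89%, the slope was 0.257 (adjusted p = 0.78). A fit with a per-library GC offset, added after seeing the data, called 768 genes, 350 higher and 418 lower, of which 524 were called the same way without it (68.2% of the 768 and 36.7% of the 1429). With the offset 4 heat shock genes were called, but not the same ones. Hsp90aa1, Hspa8 and Hsph1 stayed, Hspd1 was lost, and a member not called without the offset passed. Ccl22, Cd22, Fcer2a, Egr1, Zfp36, Fbln2, Gata3, Il33 and Hsp90b1 were also no longer called. The part of base composition or RNA quality in the remaining calls was not tested.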

How the data were processed

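RNA of 25 mouse lungs was sequenced, and the 15 libraries of the 2-week groups were used. Libraries were made with the TruSeq Stranded Total RNA kit, per the labels' protocols, and reads were aligned with STAR 2.5.3a to GRCm38, per the submitters' processing notes. Which program counted reads, with which strand setting and annotation release, is not given in the sources used here. The deposited table gives gene counts as whole numbers without normalization, and 0 of its columns lay outside the labels. Symbols were found for 99.5% of its identifiers, and coordinates are from the GRCm38 annotation of the same identifiers.

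Genes were filtered with filterByExpr (edgeR 4.0.16, R 4.3.3) and scaled by TMM. CPM values are counts per 1000000 after that scaling. The trend is the quasi-likelihood slope over codes 0, 1 and 2, and the steps and curvature are contrasts of a group-means fit, all two-sided, with Benjamini-Hochberg adjustment over 18708 genes and calls at an adjusted p under 0.05. The rank trend test was Jonckheere-Terpstra. The same code was tested on simulated data. limma 3.58.1 (voom), DESeq2 1.42.0, other scalings, filters, codings, a replicate block, a GC offset and leaving out each library were alternatives. In all 105 pairs of libraries counts differed by more than sampling noise (lowest chi-square per degree of freedom 12.1). P-values measure the spread between mice, which can include technical spread. Depth differed between libraries, and saline replicate 4 measures low genes least precisely.

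Genes named had a mean of at least 1 CPM and a symbol that is no predicted locus or receptor segment: the 5 highest and 5 lowest even slopes, 4 of each in both other classes, up to 6 separated genes per direction, 4 by curvature, and up to 4 per described list by p, besides members named to complete a count. Some called genes are not reported here. The comparison and gene lists were chosen with earlier results of these data known. Promoter windows are RefSeq's.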

Additional observations from a re-analysis of the deposited data

Results flagged for a closer look

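In 32 of 258 sets of 5 libraries (12.4%), 1 library lay far from the other 4 of its group, by a gap of over 0.71 of the group's range (Dixon's 95% limit for 5 samples). Chance marks about 1 in 20 sets, and sets of related genes in the same libraries are not independent.

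The displacement of replicate 5 in clock genes was marked at 42.2 CPM (Arntl), 38.1 (Dbp) and 30.1 (Per3) in saline and at 26.6 (Arntl), 97.7 (Dbp) and 192 (Nr1d2) at 10 µg. The same saline library was marked in Hspa5, at 377 CPM, and in Sparc, at 921. Clock was marked in saline replicate 4, at 308 CPM, and Cry1 in 10 µg replicate 4, at 11.6.

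The shallow saline replicate 4 was marked for its share of counts on mitochondrial genes (9.80%), mitochondrial ribosomal RNA (5.89%) and ribosomal RNA genes (27.8%). In genes it was marked in Lars2 (510 CPM), Hsp90aa1 (868), Hsp90b1 (1131), Muc5ac (4.38), Ppbp (75.3) and Loxl4 (1.75).

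Replicate 4 of 10 µg stood apart in the chaperones Hspa8 (1629 CPM), Hsp90aa1 (706), Hsp90b1 (849) and Hspa5 (487), all higher than the rest of its group, and in Serpinb9, at 149 CPM, lower. Replicate 1 of 10 µg was marked in Lars2 (61.5 CPM) and Ripply3 (51.7). At 100 µg, replicate 1 was marked in Egr1 (45.7 CPM), Hsp90b1 (778) and P4ha1 (97.0), all 3 displaced towards the saline mean, and in the share on ribosomal RNA genes (0.143%). Replicate 2 was marked in Loxl1 (144 CPM) and replicate 4 in Cyp1a1 (81.6 CPM).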

How the results depend on the processing

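Counts of genes called by the slope (871 higher, 558 lower) moved most with the dose coding: in µg in place of codes they were 142 and 98, with DESeq2 1423 and 1180, with no low-count filter 350 lower, and with the GC offset 350 higher. Leaving out 1 library gave 373 to 1227 higher, 225 to 864 lower, 51.4% to 66.9% even, 17.4% to 34.3% mostly at 10 µg and 7.92% to 24.3% mostly at 100 µg. It gave 0 to 36 genes at the first step, 0 to 1 at the second, and 0 for curvature and for both steps. The percents even, mostly at 10 µg and mostly at 100 µg were 53.9, 28.9 and 17.2 with DESeq2, 64.3, 15.2 and 20.4 with the GC offset, 66.6, 22.8 and 10.6 over genes called by the rank test, 78.8, 13.9 and 7.28 with even taken from 1/4 to 3/4, 45.1, 32.9 and 22 over genes at an unadjusted p under 0.05, and 56.2, 0 and 43.8 with µg coding, whose slope is set by 100 µg. With all 25 libraries in 1 fit 56.5% were even, and with a linear contrast of group means 54.6% were even and 30.9% mostly at 10 µg. The first step had 0 calls with DESeq2-type size factors or the GC offset, 5 with limma-voom, 8 with all 25 libraries, 72 with no filter and 221 with DESeq2. The second step had 4 calls with no filter and 6 with DESeq2, and curvature had 2 with DESeq2. With both replicates 5 left out together the second step had 4 calls and both steps 1. Causes were not tested.

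With the replicate number as a block, 853 genes were higher and 523 lower, 29.1% changed mostly at 10 µg, and 20 genes passed at the first step, 3 at the second and 1 at both. Deviations of same-numbered libraries correlated by -0.111 to 0.329, and 3 of 15 comparisons were best with their own number. The labels do not say what equal numbers share, and these correlations cannot decide whether they share a cage, a day or a batch.

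Slopes that changed sign were those of genes not called by it, except Prg4, whose rank statistic was -5.50. Pdp2 (0.00) gave -0.004 with DESeq2-type size factors, limma-voom or all 25 libraries, -0.005 with DESeq2, -0.006 with the stricter filter, -0.007 with upper-quartile scaling, -0.124 with µg coding and -0.016 without both replicates 5, and -0.018 to 0.017 when 1 library was left out, below 0 without any 1 of saline replicates 2 to 5. Oaz2 gave -0.1 with µg coding, -0.039 with the GC offset and -0.002 to 0.045 when 1 library was left out, below 0 without saline replicate 4, and Arhgef26 gave 0.006 with µg coding. The slope of total counts was 0.967 M per step and -2.14 M without saline replicate 4, that of the mitochondrial share 0.379 and 1.09 percentage points, that of mitochondrial ribosomal RNA 0.257 and 0.785, and that of ribosomal RNA genes -2.80 and -0.0203. Over all named genes and single measures, 979 recomputed values kept direction and side of the threshold in processing alternatives, 141 kept direction only, 1 newly passed and 12 changed sign.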

Other observations

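Among lists not described above, named here after their values were seen, 2 of 10 plasma cell genes (Ighm and Igkc, immunoglobulin constant regions that B cells also express) rose with the dose code and 0 fell. Of 12 genes of dendritic cells and MHC class II 2 rose, Cd74, the invariant chain, and Ciita, the class II transactivator, which B cells express too. Alveolar type 1 markers had 2 of 10 members that fell (Cav1 and Rtkn2) and alveolar type 2 markers 2 of 11 that rose (Etv5 and Napsa). The background was 4.66% of all genes higher and 2.98% lower. Alveolar type 1 markers had 0 calls without any 1 of saline replicates 1 and 2 and 100 µg replicates 2, 3 and 4. Dendritic cell and MHC class II genes had 0 without any 1 of saline replicates 1 and 3 and 100 µg replicates 2, 3 and 4, and with the GC offset. Plasma cell genes had 0 without saline replicate 3. With all 25 libraries in 1 fit plasma cell genes and alveolar type 1 markers had 0. Alveolar type 2 markers kept 2 to 4 calls whichever library was left out. None of 12 glucocorticoid-responsive genes, 14 interferon-stimulated genes, 8 natural killer cell genes or 12 ciliated cell genes was called by edgeR's slope in the main fit. Interferon-stimulated genes had 2 calls with limma-voom, with a replicate block or without saline replicate 4, and 4 with DESeq2. Glucocorticoid-responsive genes had 1 call with the replicate block or without 10 µg replicate 1, and ciliated cell genes 1 without 100 µg replicate 1. In the main fit, 15 of 38 lists held no called gene.

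The 12-week libraries gave a further readout of 100 µg against the libraries labelled saline, with 5 mice in each group. edgeR called 0 of 18791 genes there (4991 at an unadjusted p under 0.05, smallest adjusted p 0.112). Of the 1429 genes called over dose at 2 weeks 1420 were tested at 12 weeks, and 316 of these had an unadjusted p under 0.05 by the same edgeR test. That is a smaller share than the 4991 of 18791 among all genes. The direction at 12 weeks was that of the 2-week slope in 48.6% of the 1420, and in 52.2% of all 18123 genes tested at both times.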
